A study of Mus musculus with 4 samples.

Results

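Transcripts of 10 macrophage and MHC class II genes were followed in RNA from sorted tumour cells, a preparation from which leukocytes had been gated away. The genes were chosen by name as 7 macrophage markers (Adgre1, Csf1r, Cd68, Lyz2, C1qa, C1qb and Mrc1) and 3 class II genes (Cd74, H2-Aa and H2-Ab1), and they are 10 of the 35905 genes that the transcript tables could be summed to. Sorted cells came from subcutaneous tumours of Lewis lung carcinoma (LLC), a mouse lung cancer line that grows in C57BL/6 hosts, and were kept when positive for the red fluorescent protein TdTomato and negative for CD45, the surface protein of nearly all leukocytes. The PAD4-DN group held 2 libraries from hosts carrying Mrp8Cre and a floxed Padi4 gene (Mrp8Cre+, Padi4 fl/fl), and the WT group held 2 libraries from hosts with the same floxed gene and no Cre (Mrp8Cre-, Padi4 fl/fl). All hosts bore tumours for 4 weeks after implantation. Padi4 encodes PAD4, the enzyme that citrullinates histones when neutrophils release extracellular traps. The Mrp8Cre driver is active in neutrophils, with some activity known in other myeloid cells. The deletion was therefore in host cells and not in the implanted tumour line, and the Padi4 transcript of the sorted cells does not check the genotype. The labels do not say that the libraries of a group came from separate animals, so a p-value here reflects how far these libraries spread and no more.

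As background, tissue macrophages depend on the receptor Csf1r, carry the adhesion receptor F4/80 encoded by Adgre1, and fill their lysosomes with Cd68 and lysozyme. They are also a main source of the complement component C1q. Class II molecules are pairs of an alpha and a beta chain that load peptide in endosomes after the invariant chain Cd74 is cut away, and antigen-presenting cells make them under the control of the transactivator Ciita. Tumour cells and other non-leukocytes can also make class II after interferon-gamma.

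Depth was similar across libraries, with 20036322 and 24142484 estimated counts in PAD4-DN replicates 1 and 2, against 23414984 and 25327974 in WT replicates 1 and 2. The 10 genes together took 1741 and 279 of those counts in the PAD4-DN libraries, against 999 and 1190 in the WT libraries. As a share of the library this was 0.00869% and 0.00116% in PAD4-DN replicates 1 and 2, against 0.00427% and 0.00470% in WT replicates 1 and 2. PAD4-DN replicate 1 thus held the most and PAD4-DN replicate 2 the least, with both WT libraries between them. The transcript of CD45 itself, Ptprc, named after its values were seen, had 111 and 16.9 estimated counts in the PAD4-DN libraries, against 49.6 and 43.0 in the WT libraries, in the same order at the extremes. In bulk RNA, fewer cells of a type and less RNA per cell cannot be told apart.

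Levels below are given as CPM (read counts scaled to the TMM-adjusted library size) for one gene across libraries, and as TPM (transcript abundance corrected for transcript length) for levels between genes. Over the 4 libraries the mean level ran between 31.6 TPM for Lyz2 and 0.947 TPM for H2-Ab1, a 33.4-fold range. Cd68 averaged 6.97 TPM, C1qa 4.09 TPM, C1qb 4.04 TPM and Cd74 3.25 TPM, and the other 5 genes lay below these. Lyz2 ranked 1947 of 18655 detected genes by TPM in PAD4-DN replicate 1 and 8779 of 18971 in PAD4-DN replicate 2, against 4640 of 18635 in WT replicate 1 and 4232 of 19078 in WT replicate 2.

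Lyz2, the lysozyme of macrophages and neutrophils, carried the largest part of the macrophage signal, with 63.6% and 45.1% of the counts of the 7 macrophage genes in the PAD4-DN libraries, against 50.5% and 55.8% in the WT libraries. It lies beside Lyz1, a paralog that cells of the gut make, and the promoters of both are shown because the copies are so alike. The 120 bases before the start of each gene are from RefSeq on GRCm38.p6, both on the minus strand, at chr10:117282273-117282392 for Lyz2 and chr10:117292869-117292988 for Lyz1. Capitals mark the longest run the promoters share without a mismatch, 50 bases that end directly before the start.
Lyz2: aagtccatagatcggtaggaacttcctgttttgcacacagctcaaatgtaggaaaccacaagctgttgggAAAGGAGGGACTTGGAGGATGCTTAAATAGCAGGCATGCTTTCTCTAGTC
Lyz1: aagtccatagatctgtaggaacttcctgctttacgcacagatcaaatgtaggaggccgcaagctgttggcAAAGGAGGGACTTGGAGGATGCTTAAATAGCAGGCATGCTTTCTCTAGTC
In all, 111 of the 120 bases were identical. In the transcripts, 422 of the 1286 words of 31 bases in Lyz2 (32.8%) also occurred in Lyz1. The split of reads that lie wholly in such shared stretches is an estimate, and the promoter letters do not bear on it.

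Lyz2 had 50.9 and 4.99 CPM in PAD4-DN replicates 1 and 2, against 20.4 and 22.9 CPM in WT replicates 1 and 2. The PAD4-DN libraries lay on either side of the WT libraries, which were close together. Means were 28.0 ± 32.5 CPM in PAD4-DN libraries and 21.7 ± 1.79 CPM in WT libraries (SD, n = 2 each). The log2 fold change was 0.36 with a standard error of 0.92, and the adjusted p was 0.990 by edgeR's quasi-likelihood test with Benjamini-Hochberg adjustment. Lyz1 was listed at 8.04 and 1.00 estimated counts in the PAD4-DN libraries, against 1.01 and 5.01 in the WT libraries. Adding Lyz1 to Lyz2 gave a log2 fold change of 0.37.

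Of the surface receptors, Csf1r, which binds the growth factors CSF1 and IL-34, had 5.76 and 0.503 CPM in the PAD4-DN libraries, against 3.52 and 3.01 CPM in the WT libraries. The PAD4-DN libraries again enclosed the WT ones. Mrc1, the mannose receptor CD206 of tissue macrophages, had 7.76 and 1.43 CPM in the PAD4-DN libraries, against 3.08 and 4.52 CPM in the WT libraries. Adgre1 had 1.32 and 0.419 CPM in the PAD4-DN libraries, against 0.923 and 1.43 CPM in the WT libraries. It was the macrophage gene whose highest library was WT replicate 2 rather than PAD4-DN replicate 1. The Adgre1 level per length needs care, since its 3.74 TPM in WT replicate 2 stood against 0.402 TPM in WT replicate 1. Of that value, 2.51 TPM came from 6 estimated counts on a short transcript of 342 bases, and the main transcript of 3238 bases had 0.597 and 0.177 TPM in the PAD4-DN libraries, against 0.402 and 0.498 TPM in the WT libraries.

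Cd68, a lysosomal glycoprotein, had 6.88 and 2.81 CPM in the PAD4-DN libraries, against 6.77 and 3.53 CPM in the WT libraries. Here replicate 1 was high and replicate 2 low in both groups, and Cd68 was the one member whose WT replicate 2 lay below WT replicate 1 by more than counting error. C1qa and C1qb encode the A and B chains of C1q. C1qa had 3.17 and 0.419 CPM in the PAD4-DN libraries, against 3.08 and 3.01 CPM in the WT libraries. C1qb had 4.29 and 0.503 CPM in the PAD4-DN libraries, against 2.64 and 2.62 CPM in the WT libraries. For both chains PAD4-DN replicate 2 stood well below the others, and the WT libraries were nearly equal. The C chain gene C1qc, named after its values were seen, had 51 and 5 counts in the PAD4-DN libraries, against 36 and 45 in the WT libraries.

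**Figure D1:**
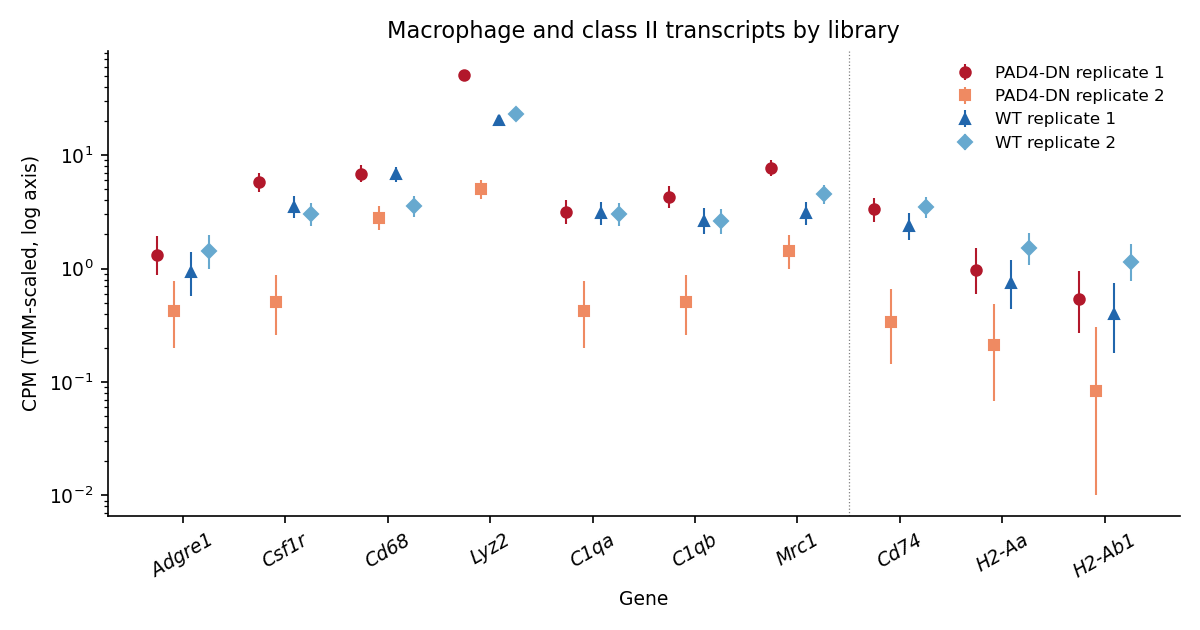
Level of each of the 10 genes in CPM (log axis) in each library, with PAD4-DN libraries left of WT libraries and counting intervals of 95% as bars. PAD4-DN replicate 2 is the lowest library for all 10 genes, while PAD4-DN replicate 1 is the highest for 6 and WT replicate 2 for 4.

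The class II genes showed another order at the top. Cd74 had 3.32 and 0.335 CPM in the PAD4-DN libraries, against 2.37 and 3.49 CPM in the WT libraries. H2-Aa, the alpha chain of I-A, had 0.976 and 0.210 CPM in the PAD4-DN libraries, against 0.747 and 1.51 CPM in the WT libraries. H2-Ab1, the beta chain of I-A, had 0.537 and 0.0838 CPM in the PAD4-DN libraries, against 0.396 and 1.15 CPM in the WT libraries. All 3 were highest in WT replicate 2, as were 22.3% of all genes tested, and lowest in PAD4-DN replicate 2, with PAD4-DN replicate 1 above WT replicate 1. These are few reads, since H2-Ab1 had 11 and 2 counts in the PAD4-DN libraries, against 9 and 29 in the WT libraries. H2-Eb1, the beta chain of I-E and also named after its values were seen, had 17 and 3 counts in the PAD4-DN libraries, against 9 and 35 in the WT libraries. H2-DMa and H2-DMb1, named in the same way, shared the lowest library but not the highest. H2-DMa had 1.07 and 0.545 CPM in the PAD4-DN libraries, against 0.615 and 0.674 CPM in the WT libraries. H2-DMb1 had 0.488 and 0.377 CPM in the PAD4-DN libraries, against 0.923 and 0.833 CPM in the WT libraries.

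Class II promoters are known for a compact block of shared elements, the X and Y boxes, at which the factors RFX, CREB and NF-Y assemble and recruit Ciita. The H2-Aa promoter is shown because it holds the letters of a pair of these elements, as the 120 bases before the start on the minus strand of chr17:34287824-34287943 (RefSeq, GRCm38.p6). Capitals mark the letters TGACGTCA, the element that CREB proteins bind, and ATTGG, the core of the Y box.
H2-Aa: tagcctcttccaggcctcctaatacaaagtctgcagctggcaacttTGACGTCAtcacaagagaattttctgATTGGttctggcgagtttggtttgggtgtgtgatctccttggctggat
The first element lies 74 to 67 bases before the start and the second 48 to 44 bases before it, and the motifs do not overlap. Searched on both strands of 32851 promoter windows of the same length, TGACGTCA was in 1.24%, ATTGG in 21.3% and both in 0.283%. These matches describe letters and were not tested as binding sites. The promoter table had entries for 5 of the 10 genes, namely Cd68, Lyz2, C1qb, Mrc1 and H2-Aa.

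The question of the design is whether loss of PAD4 in host neutrophils changes the RNA of the tumour cells, and for these genes no difference between PAD4-DN and WT passed the test. By edgeR's quasi-likelihood test with Benjamini-Hochberg adjustment, 0 of the 10 genes were past an adjusted p of 0.05, against 0% of all 13718 genes tested. At an unadjusted p under 0.05 the count was 0 of 10, against 2.65% of all genes. DESeq2 and limma-voom also called 0 of the 10, where DESeq2, and likewise edgeR without a filter on low counts, called 0.0456% of all genes. The groups overlapped for all 10 genes, whereas 32.8% of all genes tested had groups that did not overlap.

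Fold changes were PAD4-DN over WT on the log2 scale, and 8 were negative and 2 positive. The median was -0.090 for the 7 macrophage genes and -0.94 for the 3 class II genes, beside 0.0087 for all genes tested. The lowest was H2-Ab1 at -1.34 with a standard error of 0.99 and an adjusted p of 0.988 by edgeR's quasi-likelihood test with Benjamini-Hochberg adjustment. H2-Aa stood at -0.94 with a standard error of 0.83, Cd74 at -0.69 with 0.95 and C1qa at -0.77 with 0.86. Csf1r was at -0.067, C1qb at -0.14, Mrc1 at 0.27, Cd68 at -0.090 and Adgre1 at -0.45. The median standard error of the 10 genes was 0.881, against 0.20 over all genes tested, so these changes were loosely estimated. The changes of H2-Ab1 and H2-Aa exceeded their own standard errors, and those of the other members did not. With 2 libraries a group, the smallest two-sided p of an exact permutation test is 0.333. Lyz2 and Mrc1, the 2 genes with a positive value, were at -0.53 and -0.24 with limma-voom. With limma-voom Csf1r was at -1.01 and C1qb at -0.90, and the median of the macrophage genes was -0.66, with all 7 negative.

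**Figure D2:**
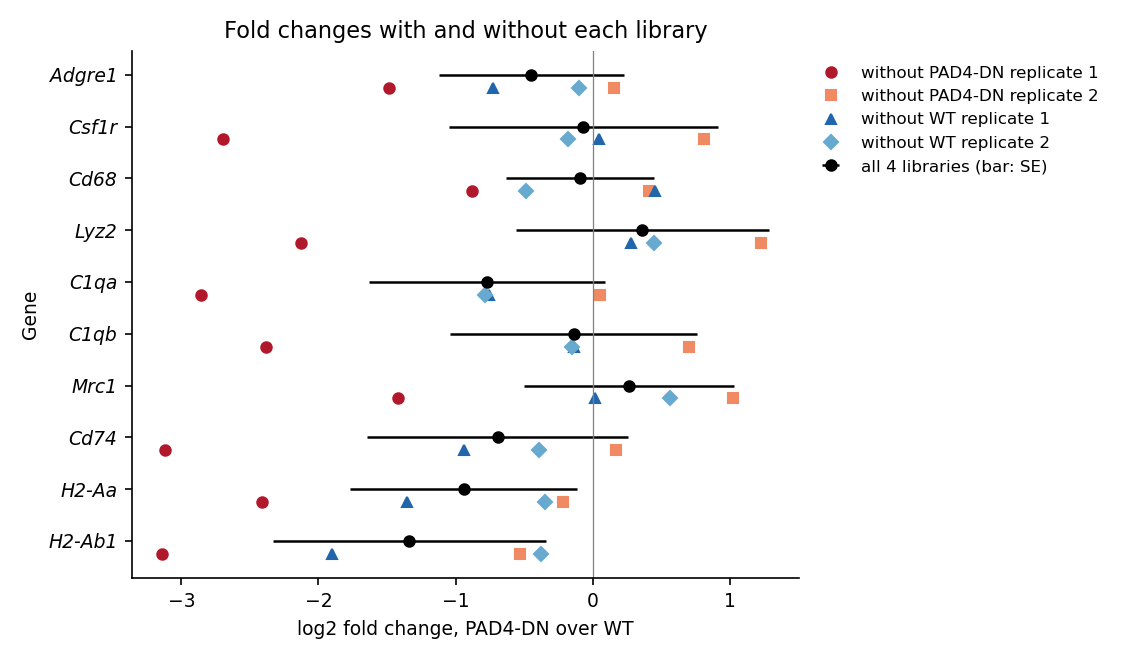
Log2 fold change of each of the 10 genes, PAD4-DN over WT, from edgeR's quasi-likelihood fit, with 1 standard error as bars (black) and the values without each library as coloured marks. The bars of 8 genes cross 0 and those of H2-Aa and H2-Ab1 do not, and the values without PAD4-DN replicate 1 lie farthest to the left for all 10.

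Single libraries moved these values, for 8 of the 10 genes across 0. Without PAD4-DN replicate 1 the median of the macrophage genes was -2.13 and that of the class II genes -3.12. Leaving out PAD4-DN replicate 2 gave 0.70 for the macrophage genes and -0.21 for the class II genes. Without WT replicate 1, Csf1r was at 0.049 and Cd68 at 0.45. The class II median was -1.35 without WT replicate 1, while dropping WT replicate 2 brought it to -0.37. In the fits that leave out a PAD4-DN library the PAD4-DN group is 1 library, assumed to vary like the WT libraries. These fits are therefore read for the size and sign of the change only. Without PAD4-DN replicate 1, all 7 macrophage and all 3 class II values were negative. Without PAD4-DN replicate 2, all 7 macrophage values and 1 of the 3 class II values were positive.

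The larger contrast lay within the PAD4-DN group. Every one of the 10 genes was lowest in PAD4-DN replicate 2, as were 28.8% of all genes tested. For 6 of them PAD4-DN replicate 1 was also the highest library (27.7% of all genes tested), a combination found for 11.4% of all genes. Lyz2 was 10.2-fold higher in PAD4-DN replicate 1 than in PAD4-DN replicate 2 (counting interval 8.44 to 12.5), Csf1r 11.4-fold (6.31 to 22.8) and Cd74 9.89-fold (4.75 to 23.8). Cd68 had the smallest ratio, 2.45 (1.82 to 3.33), followed by Adgre1 at 3.14 (1.47 to 7.28). Across all tested genes above 0 in every library the median ratio was 1.01, and the 5th to 95th percentile ran between 0.6 and 2.41. These intervals hold 95% and cover counting error only, since reads copied by PCR and not tagged per molecule are not independent. For 6 genes (Csf1r, Lyz2, C1qa, C1qb, Mrc1 and Cd74) the counting interval of PAD4-DN replicate 2 lay wholly below that of the lower WT library.

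Between the WT libraries the members moved less. The ratio of WT replicate 2 over WT replicate 1 was 0.98 for C1qa, 0.99 for C1qb and 1.12 for Lyz2 (counting interval 0.99 to 1.27). Cd68 was lower in WT replicate 2, at a ratio of 0.52 (0.40 to 0.68). H2-Ab1 had a ratio of 2.91 (1.34 to 6.98), H2-Aa 2.02 (1.11 to 3.81), Cd74 1.47 (1.04 to 2.10) and Mrc1 1.47 (1.08 to 2.01). Adgre1 had a ratio of 1.55 (0.88 to 2.79) and Csf1r 0.86 (0.62 to 1.19). The class II genes, and Mrc1 among the macrophage genes, thus stood higher in WT replicate 2 by more than their counting error. H2-Ab1 and H2-Aa had the largest ratios.

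That difference shows in the share that class II genes took of the counts of all 10. The share was 5.69% (4.65% to 6.88%) and 5.38% (3.04% to 8.71%) in the PAD4-DN libraries, against 8.01% (6.40% to 9.87%) and 13.0% (11.2% to 15.1%) in the WT libraries, with exact Clopper-Pearson intervals. The PAD4-DN values were the lower ones, but the interval of PAD4-DN replicate 2 included the value of WT replicate 1. With Lyz2 left out of the total, the share was 14.2% (11.7% to 17.0%) and 9.38% (5.34% to 15.0%) in the PAD4-DN libraries, against 15.0% (12.0% to 18.3%) and 25.3% (21.9% to 29.0%) in the WT libraries. On that count WT replicate 2 stood apart from the other 3 libraries. The interval of PAD4-DN replicate 2 overlapped that of PAD4-DN replicate 1 in both forms of this share.

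**Figure D3:**
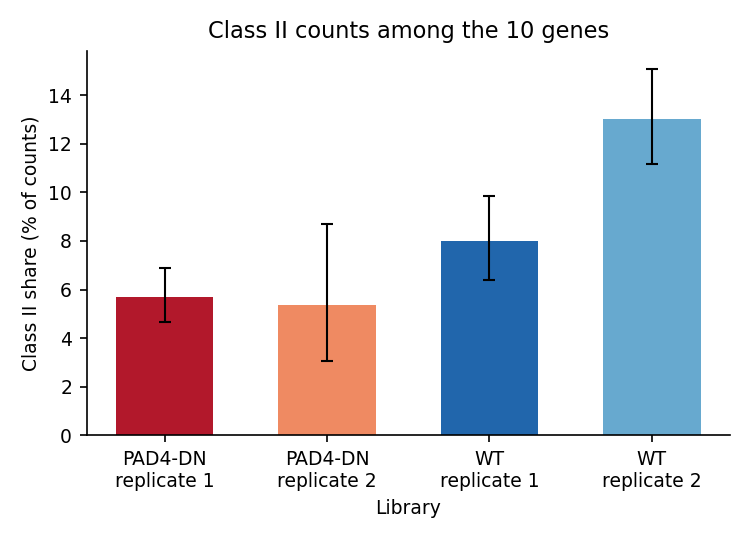
Share of the counts of the 10 genes that fell on Cd74, H2-Aa and H2-Ab1 in each library, in percent, PAD4-DN left of WT, with exact Clopper-Pearson intervals of 95% as bars. WT replicate 2 is highest at 13.0% and the PAD4-DN libraries are at 5.69% and 5.38%.

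Other macrophage and monocyte genes, a list of 36 of which 32 were tested, had 0 called by edgeR's quasi-likelihood test with Benjamini-Hochberg adjustment and 1 with an unadjusted p under 0.05. Their median log2 fold change was 0.43, with 28 positive and 4 negative, and PAD4-DN replicate 1 was highest for 28 and PAD4-DN replicate 2 lowest for 22. Apoe, a lipid carrier that macrophages secrete, had 11.6 and 1.30 CPM in the PAD4-DN libraries, against 4.31 and 5.55 CPM in the WT libraries. Ccr2, the chemokine receptor of inflammatory monocytes, had 5.56 and 1.01 CPM in the PAD4-DN libraries, against 1.49 and 1.47 CPM in the WT libraries. Apoe and Ccr2 followed the order of the macrophage members at both ends.

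Several genes of that list did not. Mertk, a receptor for apoptotic cells, had 40.3 and 37.0 CPM in the PAD4-DN libraries, against 38.3 and 36.1 CPM in the WT libraries. Gpnmb, a glycoprotein of macrophages and of many tumour cells, had 22.2 and 24.0 CPM in the PAD4-DN libraries, against 17.4 and 18.8 CPM in the WT libraries, with an unadjusted p of 0.0491 and an adjusted p of 0.988 by edgeR's quasi-likelihood test. Spp1, osteopontin, had 1536 and 3294 CPM in the PAD4-DN libraries, against 2364 and 1258 CPM in the WT libraries. Mertk, Gpnmb and Spp1 did not share the members' low point in PAD4-DN replicate 2. Lysosome genes used by many cell types, 12 tested, had PAD4-DN replicate 1 over replicate 2 ratios between 0.82 and 1.25.

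The class II pathway list of 16 genes had 12 tested and 0 called by edgeR's quasi-likelihood test, with 0 at an unadjusted p under 0.05. The median log2 fold change was -0.081, with 5 positive and 7 negative. Rfx5, which binds the X box, had 15.0 and 19.0 CPM in the PAD4-DN libraries, against 20.7 and 26.4 CPM in the WT libraries. Its PAD4-DN values were the lower ones, with a log2 fold change of -0.47 and an adjusted p of 0.988 by edgeR's quasi-likelihood test, and 17.4% of all genes tested were ordered this way. Ifi30, the thiol reductase that opens disulfide bonds of antigens, had 21.8 and 22.2 CPM in the PAD4-DN libraries, against 24.7 and 27.0 CPM in the WT libraries. Ciita, named after its values were seen, had 7.0 and 14.7 estimated counts in the PAD4-DN libraries, against 10.8 and 16.0 in the WT libraries. By these few counts Ciita was not lowest in PAD4-DN replicate 2, unlike the class II chains. Its ratio of PAD4-DN replicate 1 over replicate 2 was 0.54 (counting interval 0.19 to 1.42), so the order of these libraries was within counting error.

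Interferon-gamma response genes, 19 of 19 tested, had 0 called by edgeR's quasi-likelihood test and 1 with an unadjusted p under 0.05. All 19 log2 fold changes were negative, with a median of -0.65, and 17 genes were highest in WT replicate 2 and 17 lowest in PAD4-DN replicate 2. B2m, the light chain of class I, had 476 and 517 CPM in the PAD4-DN libraries, against 615 and 828 CPM in the WT libraries. Its lowest library was PAD4-DN replicate 1, unlike most of the list. Over all genes tested, 22.3% were highest in WT replicate 2 and 28.8% lowest in PAD4-DN replicate 2. The class II members had the same highest and lowest library as most of the list. The part of this response in their values was not tested.

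Markers of other cells that a CD45-negative gate could let through were uneven across the libraries too. Of 13 tested pan-leukocyte genes, 9 were highest in PAD4-DN replicate 1 and 9 lowest in PAD4-DN replicate 2, and the summed level of the 15-gene list was 145 and 134 TPM in the PAD4-DN libraries, against 148 and 97.1 TPM in the WT libraries. That sum was carried by genes that did not follow the members, such as Itgb2, the CD18 integrin chain, with 72.0 and 73.3 CPM in the PAD4-DN libraries, against 70.9 and 42.8 CPM in the WT libraries. Lcp1, the actin bundler of leukocytes, did follow them, with 15.8 and 3.27 CPM in the PAD4-DN libraries, against 7.25 and 8.05 CPM in the WT libraries.

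Neutrophil and red cell genes were also low in WT replicate 2. The 16 neutrophil genes summed to 75.9 and 25.3 TPM in the PAD4-DN libraries, against 56.2 and 12.8 TPM in the WT libraries. S100a8, a calcium-binding protein abundant in neutrophils, had 3.95 and 0.713 CPM in the PAD4-DN libraries, against 3.38 and 0.317 CPM in the WT libraries. Of the 10 tested neutrophil genes 7 were lowest in WT replicate 2, as were 21% of all genes tested. The 9 erythroid and platelet genes summed to 504 and 15.4 TPM in the PAD4-DN libraries, against 137 and 18.3 TPM in the WT libraries. In PAD4-DN replicate 1 and WT replicate 1 the neutrophil sum rested mostly on S100a8 and S100a9. Cxcr2, the chemokine receptor of neutrophils, did not follow them, with 3.61 and 3.94 CPM in the PAD4-DN libraries, against 2.42 and 1.71 CPM in the WT libraries, and PAD4-DN replicate 2 was lowest for 2 of the 10 tested neutrophil genes. For the members other than Cd68, WT replicate 2 stood at 0.857 of WT replicate 1 or higher.

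Of other cells that bear class II, 7 of 12 dendritic cell genes and 2 of 8 B cell genes were tested and 0 were called by edgeR's quasi-likelihood test, with 1 of each list at an unadjusted p under 0.05. Dendritic cell genes summed to 72.7 and 62.0 TPM in the PAD4-DN libraries, against 65.6 and 143 TPM in the WT libraries, and B cell genes to 2.60 and 2.33 TPM in the PAD4-DN libraries, against 1.12 and 1.5 TPM in the WT libraries. The dendritic sum rested mostly on Bst2, which interferon also induces and which had 54.7 and 41.1 TPM in the PAD4-DN libraries, against 48.6 and 124 TPM in the WT libraries. Without Bst2 the dendritic genes summed to 17.9 and 20.95 TPM in the PAD4-DN libraries, against 17.0 and 19.3 TPM in the WT libraries. Clec9a of that list had 24.4 and 33.7 CPM in the PAD4-DN libraries, against 25.2 and 29.5 CPM in the WT libraries. The dendritic receptor Cd209a, named after its values were seen, was at 0 in all 4 libraries. T and NK cell genes, 3 of 13 tested, summed to 11.1 and 5.92 TPM in the PAD4-DN libraries, against 6.57 and 4.48 TPM in the WT libraries. That sum rested mostly on Cd3d. Without Cd3d it was 2.86 and 1.62 TPM in the PAD4-DN libraries, against 0.656 and 1.67 TPM in the WT libraries. The part of any of these cells in the members' values was not tested.

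Most endothelial genes had the same highest and lowest library as 6 of the macrophage members. Of 8 tested, 6 were highest in PAD4-DN replicate 1, 6 lowest in PAD4-DN replicate 2 and 5 both, and 0 were called by edgeR's quasi-likelihood test, with 0 at an unadjusted p under 0.05. Cdh5, the cadherin of endothelial junctions, had 4.59 and 1.26 CPM in the PAD4-DN libraries, against 3.91 and 2.86 CPM in the WT libraries. The summed level of the 9-gene list, 51.6 and 33.6 TPM in the PAD4-DN libraries, against 31.4 and 28.6 TPM in the WT libraries, rested mostly on Pecam1 and had another lowest library.

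Fibroblast genes, 11 of 11 tested, had 0 called by edgeR's quasi-likelihood test and 1 with an unadjusted p under 0.05, and they were not uniform. Their sum of 7201 and 4479 TPM in the PAD4-DN libraries, against 4452 and 4950 TPM in the WT libraries, rested mostly on Col3a1. The type I collagen chain Col1a1 had 652 and 16.9 CPM in the PAD4-DN libraries, against 16.0 and 531 CPM in the WT libraries. The surface glycoprotein Thy1 had 6.00 and 1.76 CPM in the PAD4-DN libraries, against 1.41 and 14.2 CPM in the WT libraries. Col1a1 and Thy1, with Col1a2 and Pdpn, were named after their values were seen. All 4 were high in PAD4-DN replicate 1 and WT replicate 2, which were also the higher library of each group for the class II members. Of the genes named by rule, Col3a1, Dpt and Col6a1 had the same higher libraries, and Dcn, Lum and Fap did not. Lum had 343 and 681 CPM in the PAD4-DN libraries, against 425 and 442 CPM in the WT libraries. Fap had 29.2 and 29.1 CPM in the PAD4-DN libraries, against 26.5 and 12.1 CPM in the WT libraries. The part of endothelial cells or fibroblasts in the members' values was not tested.

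**Figure D4:**
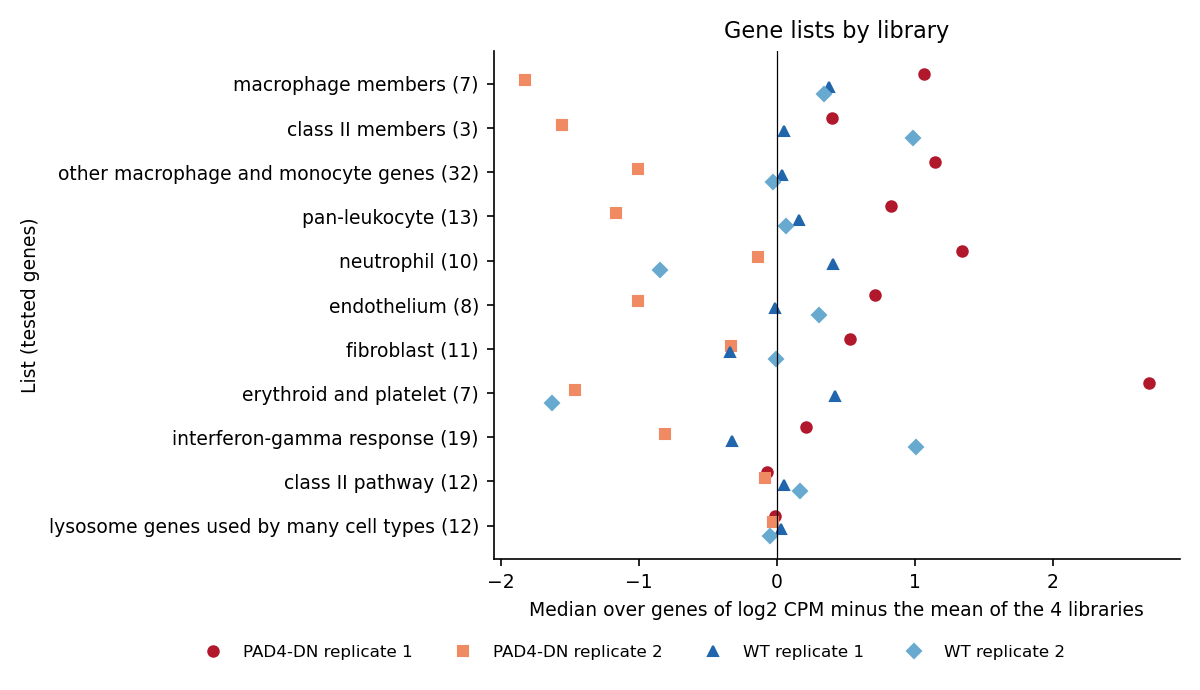
Median deviation of each gene list from its mean over the 4 libraries, on the log2 CPM scale, by library, PAD4-DN libraries first. The macrophage members stand at 1.07 (replicate 1) and -1.82 (replicate 2) in PAD4-DN libraries, and the lysosome list stays near 0 in all 4 libraries.

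The pattern over the 4 libraries was also matched to every protein-coding gene with a mean of at least 1 CPM, 11677 in all, by the Euclidean distance between centred log2 CPM values. The 6 genes nearest the mean macrophage profile were Igfbp3 (distance 0.244), Coro1a (0.292), Fcer1g (0.417), Vwf (0.471), Fcgr3 (0.524) and Slitrk6 (0.541). Coro1a, an actin regulator of leukocytes, and the Fc receptor genes Fcer1g and Fcgr3 are leukocyte genes. Vwf is made by endothelium and megakaryocytes. Igfbp3, the nearest, and Slitrk6 are on none of the lists above. Igfbp3 had 9.51 and 1.93 CPM in the PAD4-DN libraries, against 7.03 and 7.73 CPM in the WT libraries. Coro1a had 3.12 and 0.419 CPM in the PAD4-DN libraries, against 1.45 and 1.75 CPM in the WT libraries.

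Nearest the mean class II profile were Maged2 (0.358), Gbp5 (0.363), Phactr2 (0.371), Pmepa1 (0.415), Ptgis (0.437) and Armcx3 (0.443). Gbp5, a GTPase induced by interferon-gamma, had 6.05 and 1.09 CPM in the PAD4-DN libraries, against 3.34 and 8.88 CPM in the WT libraries. Maged2, the nearest, had 2.29 and 0.545 CPM in the PAD4-DN libraries, against 2.37 and 3.61 CPM in the WT libraries. Of these nearest genes, Gbp5 is on the interferon-gamma list, and the others are on none of the lists above. With 4 libraries per profile the genes named here are a description of likeness.

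**Figure D5:**
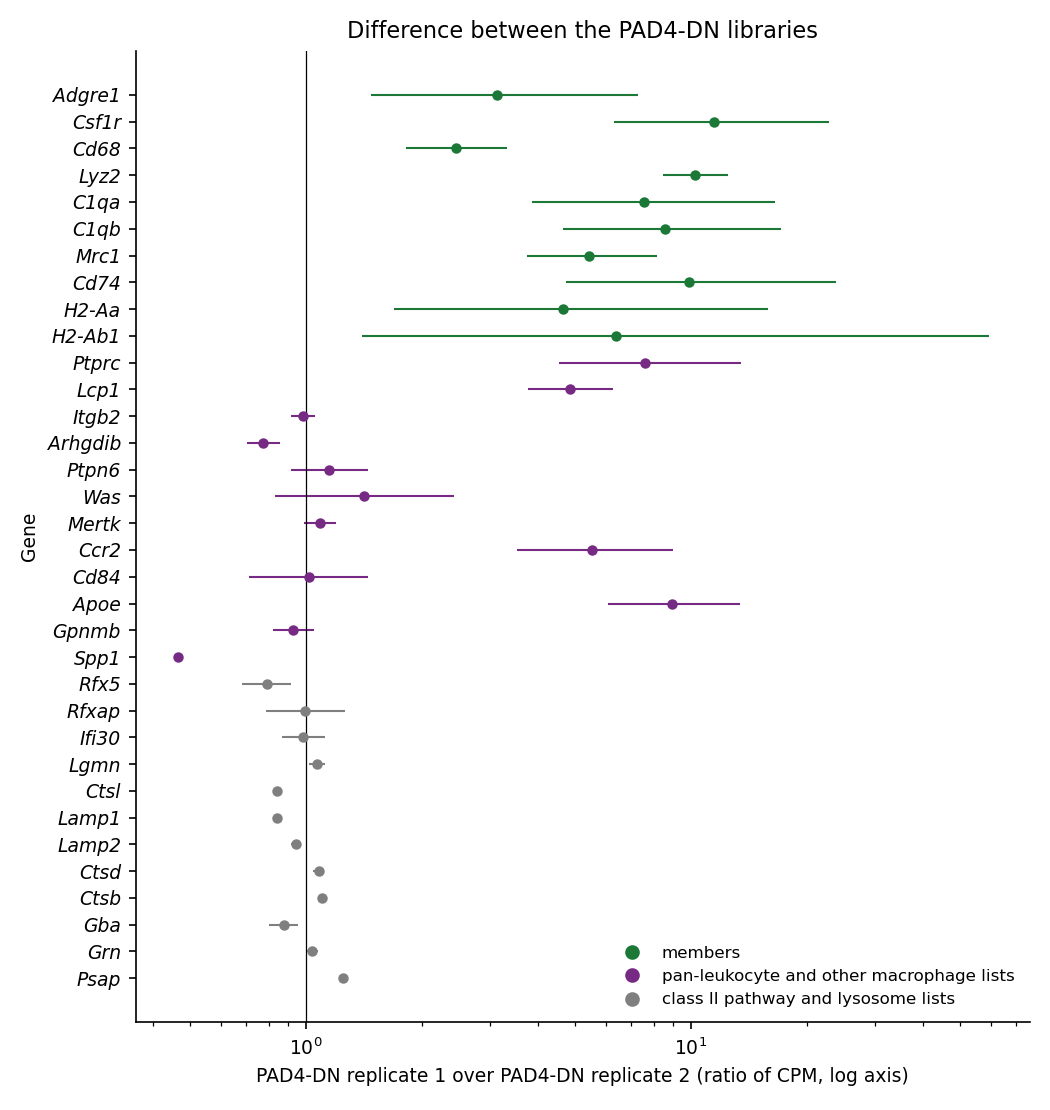
Ratio of PAD4-DN replicate 1 over PAD4-DN replicate 2 in CPM (log axis) for the 10 genes and for named genes of other lists, with counting intervals of 95% as bars. All 10 members lie above 1, between 2.45 and 11.4, while genes such as Mertk, Itgb2 and the lysosome genes lie near 1.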

How the data were processed

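Per the submitters' processing notes, kallisto and the mouse build GRCm39 were used; its version and annotation are not given in the sources used. The authors deposited 1 table per library with estimated counts, unnormalized and often fractional, and TPM values, which are scaled for effective length, for 117486 transcripts. Libraries were strand-specific poly-A libraries, per the labels' protocols.

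Transcripts were matched to genes by identifier with GENCODE M21, which is on an earlier build. It also gave the Lyz2 and Lyz1 transcript sequences that were compared by words of 31 bases. The only coordinates given are those of the promoter windows, from RefSeq. In the matching, 1078 transcripts (0.483% to 0.493% of counts) did not match and were left out. Counts were summed per gene and rounded. PAD4-DN was compared with WT by edgeR 4.0.16 in R 4.3.3 (TMM, filterByExpr, quasi-likelihood test, Benjamini-Hochberg at 0.05) over 13718 genes, without a replicate block. Alternatives used DESeq2 1.42.0 and limma 3.58.1, other scalings, filters, pseudocounts and left-out libraries. Figures were drawn with matplotlib 3.10.9.

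The members and lists were chosen with earlier results of these data known. Named genes are the members, the 4 most abundant by TPM and the 3 with smallest p per list (at least 1 mean CPM), and 6 nearest genes per profile; others are said to be named after their values were seen.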

Additional observations from a re-analysis of the deposited data

How the results depend on the processing

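Under every alternative run, 0 of the 10 members passed the threshold. The number of all genes past it was 0 by edgeR's quasi-likelihood test, 10 with DESeq2, 10 without the low-count filter, and 0 to 2 when a library was left out (2 when WT replicate 2 was left out, 1 when PAD4-DN replicate 1 was). Leaving out libraries moved the median log2 fold change of the macrophage genes between -2.13 and 0.70, and that of the class II genes between -3.12 and -0.21. The macrophage median, -0.090 in the reported fit, was -0.66 with limma-voom, -0.59 with the replicate block and -0.57 with the crossed one, and all 7 genes were negative in these. Single genes, with libraries left out, ranged between -1.49 and 0.16 for Adgre1, -2.69 and 0.81 for Csf1r, -0.88 and 0.45 for Cd68, -2.13 and 1.23 for Lyz2, -2.85 and 0.053 for C1qa, -2.38 and 0.70 for C1qb, -1.42 and 1.02 for Mrc1, and -3.12 and 0.17 for Cd74. H2-Aa and H2-Ab1 stayed negative in those fits. Lyz2, at 0.36 in the reported fit, was -0.53 with limma-voom, -0.30 and -0.36 with limma on log2(TPM + 1) and log2(TPM + 0.1), -0.38 with the replicate block and -0.34 with the crossed one. Mrc1, at 0.27, was -0.24 with limma-voom, -0.040 on log2(TPM + 0.1), -0.14 with the replicate block and -0.10 with the crossed one. The cause was not tested. Effective length offsets moved Adgre1 to -2.18. H2-Ab1 fell under the TPM minimum and gave no value there, and the 5 CPM filter left Cd68 and Lyz2.

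Deviations of same-numbered libraries correlated at -0.344 over 13718 genes, and those of crossed libraries at 0.344. With 2 libraries a group the second value is the first with its sign changed. This check cannot decide whether replicate numbers pair the libraries for some genes. The replicate block called 0 genes and the crossed block, added after seeing the data, 0. Low counts limit H2-Ab1, H2-Aa and Adgre1 most, with 51, 80 and 94 estimated counts over all libraries. Cd74 had 218, close to C1qa at 221. A count of 3 corresponds to 0.119 to 0.146 CPM.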

Other observations

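Some macrophage transcripts were seen in 1 library, and they were named after their values were seen. Lyve1, a hyaluronan receptor of lymphatic endothelium and of some tissue macrophages, had 22 counts in PAD4-DN replicate 1 but 0 in PAD4-DN replicate 2, against 0 in both WT libraries. Marco, a scavenger receptor, had 7 counts in PAD4-DN replicate 1 but 0 in PAD4-DN replicate 2, against 0 in both WT libraries. As a one-sided limit at 95%, a count of 0 allows up to 3 counts in each of those libraries.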
